A study of Hordeum vulgare with 28 samples.

Results

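In barley leaves, 274 of 25592 counted genes were chosen because they were raised after 24 h of feeding by the grass specialist mite *Oligonychus pratensis*, were raised much less or hardly at all by the generalist mite *Tetranychus urticae*, and lay within set limits 2 h after wounding. Levels are counts per 1000000 counts of the library (CPM). For each treatment, L is the log2 of the mean CPM in that treatment plus 0.5 over the mean CPM in controls plus 0.5, so that the change of a gene with few reads is understated. A member had an L of at least 2 with *O. pratensis* at 24 h, a mean CPM plus 0.5 at least 3.36 times as high with *O. pratensis* as with *T. urticae* at 24 h, and an L between -1 and 2 at 2 h after wounding. The limits on wounding let through genes that were above the controls then, and 57 of the 274 had an L of at least 1. 1 terpene synthase gene, MLOC_13618, met all of these limits but was left out by name. It averaged 174 CPM with *O. pratensis* and 11.2 CPM with *T. urticae* at 24 h. At 2 h after wounding it averaged 0.0277 CPM, against 0.111 CPM in controls. The members were therefore chosen by measured values, and their levels at 24 h with either mite, in controls and at 2 h after wounding are given as descriptions without tests.

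Poly(A) RNA came from a section of leaf number 5 of 30-day-old plants of the cultivar Morex, enclosed by wax barriers that all groups carried. The groups were *O. pratensis* for 2 h (O2) or 24 h (O24), *T. urticae* for 2 h (T2) or 24 h (T24), wounding with 60 grit sandpaper 2 h (W2) or 24 h (W24) before collection, and barriers alone (C), with 4 libraries of separate leaf enclosures in each of the 7 groups. Adult females were placed at 400 per section for 2 h and 200 per section for 24 h, so that the 2 time points differed in mite number as well as time. The *T. urticae* strain, W-GR, had been reared on kidney bean and *O. pratensis* came from maize in the field. Both were kept on barley for some generations before they were used. 1 control group served both times.

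Plants meet herbivores with layered responses: damage and feeding are sensed at the cell surface, jasmonate and other hormones relay the signal, and the leaf then makes proteins, volatiles and other specialized compounds that can deter or poison the feeder. Spider mites pierce single cells of the leaf mesophyll with a stylet and take up their contents. Specialists and generalists can differ in their salivary proteins and in their tolerance of grass defences, and the study set 1 of each side by side on barley.

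Libraries held 11708010 to 38321258 counts in all. Genes for photosynthesis marked the material as leaf: MLOC_17002, the barley gene for a light-harvesting chlorophyll protein (LHCB3), averaged 4215 CPM in C. The sum of 7 such leaf markers was 3953 to 4950 CPM in O24, 5574 to 8010 CPM in T24, 9996 to 11721 CPM in W24, 10850 to 12247 CPM in O2, 10523 to 13611 CPM in T2, 4734 to 6094 CPM in W2 and 11331 to 13945 CPM in C. The O24 sums were the lowest, in a range that overlapped W2, and the members were highest in O24. The leaf markers' part in the members' levels was not tested. In such bulk tissue, fewer cells of a type and less RNA per cell cannot be told apart. On the CPM scale the median L of all 16948 genes that passed the filter on low counts was 0.20 in O24 and 0.21 in T24, and with TMM scaling, which balances the bulk of genes between libraries, it was 0.01 in both, a shift that is small beside the members' values.

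The members made up several percent of the counted reads of the leaf in O24, against a trace of them in C. Their summed level was 31486, 33042, 35286 and 39253 CPM in the O24 libraries. In the T24 libraries it was 4184, 6239, 4512 and 8574 CPM, and in C it was 398, 471, 443 and 385 CPM. The members thus took 3.48% ± 0.337 (SD, n = 4) of all counts in O24, 0.588% ± 0.201 in T24 and 0.0424% ± 0.0040 in C. All O24 libraries lay above all T24 libraries, and all T24 libraries above all C libraries. The mean sum in O24 was 5.92 times that in T24, and the mean in T24 was 13.9 times that in C, so that the members also stood well above the controls with the generalist. The remaining groups were far below T24, at 723 to 907 CPM in W24, 480 to 896 CPM in O2, 514 to 740 CPM in T2 and 597 to 738 CPM in W2. All of their libraries lay above every C library. The C libraries entered the choice of the members, so nothing is read from that.

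**Figure D1:**
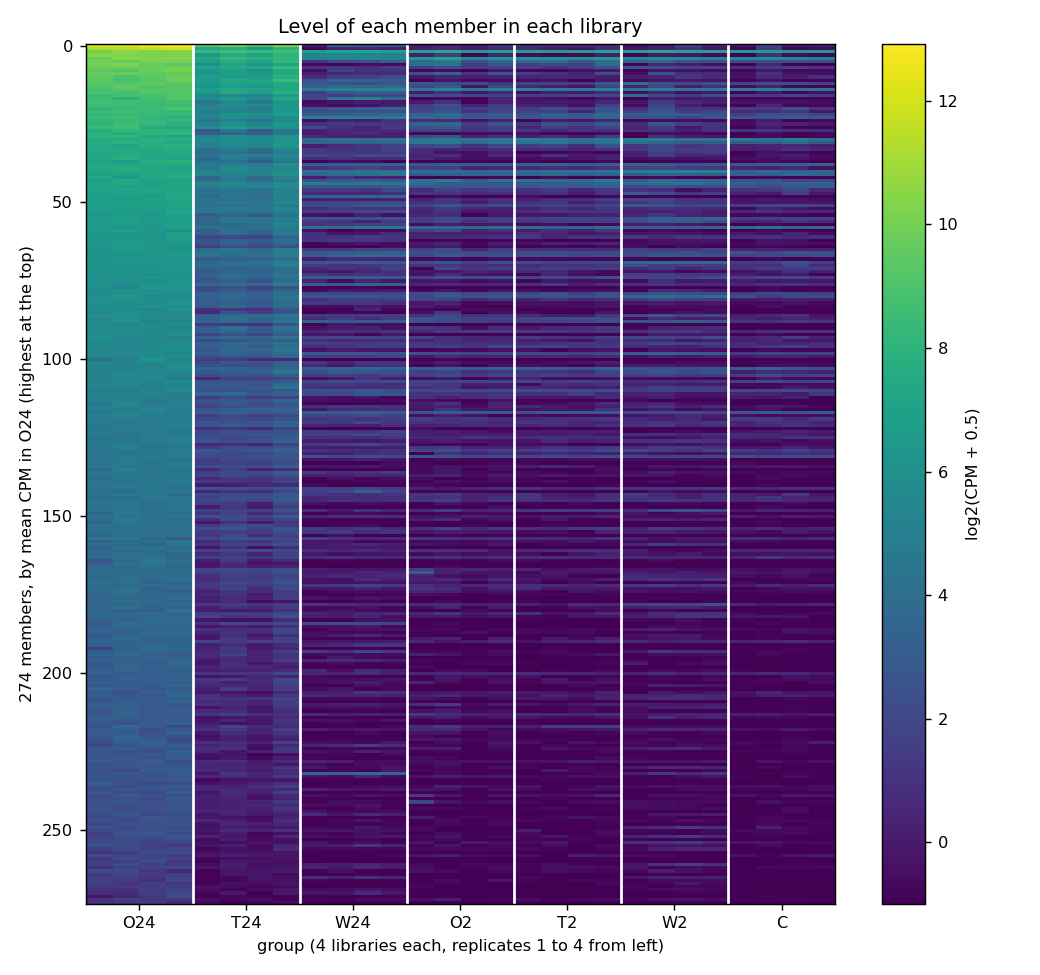
Level of each of the 274 members (rows, highest mean CPM in O24 at the top) in each of the 28 libraries (columns, 4 per group, replicates 1 to 4 from left to right), as log2(CPM + 0.5) in colour. By mean, the O24 columns are brightest in every row but 1, the T24 columns are intermediate with replicate 4 brightest, and the other 5 groups are mostly dark.

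The abundance was uneven among members. The median member averaged 22.1 CPM in O24, 3.39 CPM in T24 and 0.128 CPM in C. In O24, 58 members averaged at least 100 CPM and 246 at least 5 CPM, and the lowest averaged 1.63 CPM. The 5 most abundant members made up 36.9% of the members' sum in O24. In C, 34 members had no count in any library and 62 averaged 1 CPM or more.

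Names for these identifiers were not paired with them in the count table, and none of them matched the gene list used here. A partial list of Arabidopsis orthologs that came with the study held 8 members, and they were of different kinds: enzymes, a transporter, a copper protein, a defence protein of the thaumatin family, a lipid-binding protein and a transcription factor. The roles given for them are those of the Arabidopsis proteins.

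Among the enzymes, MLOC_18474 had the largest gap between the mites. Its ortholog AT2G20340 encodes an aromatic aldehyde synthase, which turns phenylalanine into the volatile phenylacetaldehyde. MLOC_18474 was at 189, 312, 266 and 270 CPM in O24, against 5.57, 20.7, 6.66 and 19.9 CPM in T24. In C it was at 1.62, 1.74, 1.33 and 1.28 CPM. T24 replicates 2 and 4 were about the same and stood above replicates 1 and 3, and no T24 library came near the O24 range.

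MLOC_15525 had a level in T24 close to that at 2 h. Its ortholog AT1G10700 encodes a phosphoribosyl pyrophosphate synthase, which supplies the activated ribose for nucleotides and for the amino acids tryptophan and histidine. MLOC_15525 was at 112, 199, 140 and 133 CPM in O24, against 13.9, 27.8, 14 and 23.6 CPM in T24. It was at 15.3, 28.8, 9.70 and 16.4 CPM in O2 and at 18.1, 15.3, 14.6 and 26.2 CPM in T2, against 5.48, 6.57, 3.23 and 4.06 CPM in C. The T24, O2 and T2 ranges overlapped, all of them lay above C, and only O24 lay above them. It rose in T2 against C, with a log2 fold change of 1.90 ± 0.30 (SE, adjusted p = 0.00012, edgeR quasi-likelihood test), and in O2 against C, with 1.79 ± 0.30 (adjusted p = 0.000222, edgeR).

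MLOC_13267 is listed with AT2G36290, an alpha/beta-hydrolase, a large family of enzymes that cleave esters and related bonds. MLOC_13267 was at 58.3, 111, 76.7 and 74.2 CPM in O24, against 11.6, 20.2, 13.3 and 29.1 CPM in T24 and 0.745, 0.730, 0.580 and 0.738 CPM in C. It rose in W24 (mean 2.26 CPM) by 1.55 ± 0.37 on the log2 scale (SE, adjusted p = 0.00355, edgeR) and in O2 (mean 2.64 CPM) by 1.81 ± 0.38 (adjusted p = 0.00276, edgeR). In W2, which the rule used, it averaged 2.44 CPM, against 0.698 CPM in C. In T2 it averaged 1.26 CPM and did not pass the test (adjusted p = 0.495, edgeR). Both calls depended on single libraries. The O2 call was lost without O2 replicate 2, C replicate 2 or C replicate 3 (adjusted p = 0.0328, 0.0118 and 0.0115, edgeR). The W24 call was lost without W24 replicate 3 or 4 or C replicate 2 or 3 (adjusted p = 0.0139, 0.0103, 0.0113 and 0.0127, edgeR).

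The transporter gene MLOC_15556 was the member with the smallest change, and its T24 libraries overlapped the controls. Its ortholog AT1G71140 belongs to the MATE efflux family, whose members carry small organic compounds out of the cytosol. MLOC_15556 was at 19.5, 33.9, 38.2 and 29.8 CPM in O24, against 7.09, 9.53, 6.37 and 7.63 CPM in T24 and 5.87, 8.07, 6.17 and 7.16 CPM in C. T24 and C overlapped, whereas the lowest O24 library was about 2.05 times the highest T24 library.

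MLOC_22363, listed with the C2-domain lipid-binding protein AT1G63220, was the most even of the annotated members in O24. It was at 19.9, 20.6, 20.0 and 20.8 CPM in O24, against 5.67, 4.69, 4.25 and 6.15 CPM in T24 and 1.01, 0.974, 1.45 and 1.39 CPM in C. It rose in W24 to 2.74 CPM on average (log2 fold change 1.04 ± 0.22 SE, adjusted p = 0.00136, edgeR). This was just past the fold limit of a call, and without W24 replicate 1 or 3 or C replicate 1 or 2 the log2 fold change was 0.96, 0.94, 0.98 and 0.91. MLOC_22516, listed with AT2G32300, which encodes the copper protein uclacyanin 1 of the cell surface, was at 6.78, 6.98, 4.74 and 9.87 CPM in O24, against 0.443, 1.26, 0.805 and 1.69 CPM in T24. It had no count in C, so that O24 was at least 262-fold higher and T24 at least 38.8-fold higher than the level that 3 counts over the 4 control libraries would give.

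The last annotated pair had a mean level above that with the generalist at both times after wounding. MLOC_10662, listed with AT1G20030 of the thaumatin family of pathogenesis-related proteins, was at 2.42, 4.44, 2.47 and 1.93 CPM in O24, against 0.197, 0.532, 0.220 and 0.297 CPM in T24. In W24 it was at 0.545, 0.554, 0.926 and 0.638 CPM, above every T24 library, and it rose there against C with a log2 fold change of 3.88 ± 0.75 (SE, adjusted p = 0.000399, edgeR). It was already above C 2 h after wounding, at 0.330, 1.34, 2.38 and 1.54 CPM in W2, a range that overlapped T24. C held 4 counts of it in all. MLOC_14821, listed with AT1G29280, the DNA-binding transcription factor WRKY65, was at 2.15, 2.59, 1.69 and 3.24 CPM in O24, against 0.0493, 0.0968, 0.366 and 0.198 CPM in T24. It was at 1.25, 0.633, 1.39 and 0.797 CPM in W24, again above every T24 library, with an adjusted p of 5.88e-07 against C (edgeR). In W2 it was at 0.330, 0.738, 0.678 and 0.660 CPM, all above C. C held 1 count of it, and the ratio of W24 to C was 110 with an exact 95% counting interval of 19.3 to 4385.

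**Figure D2:**
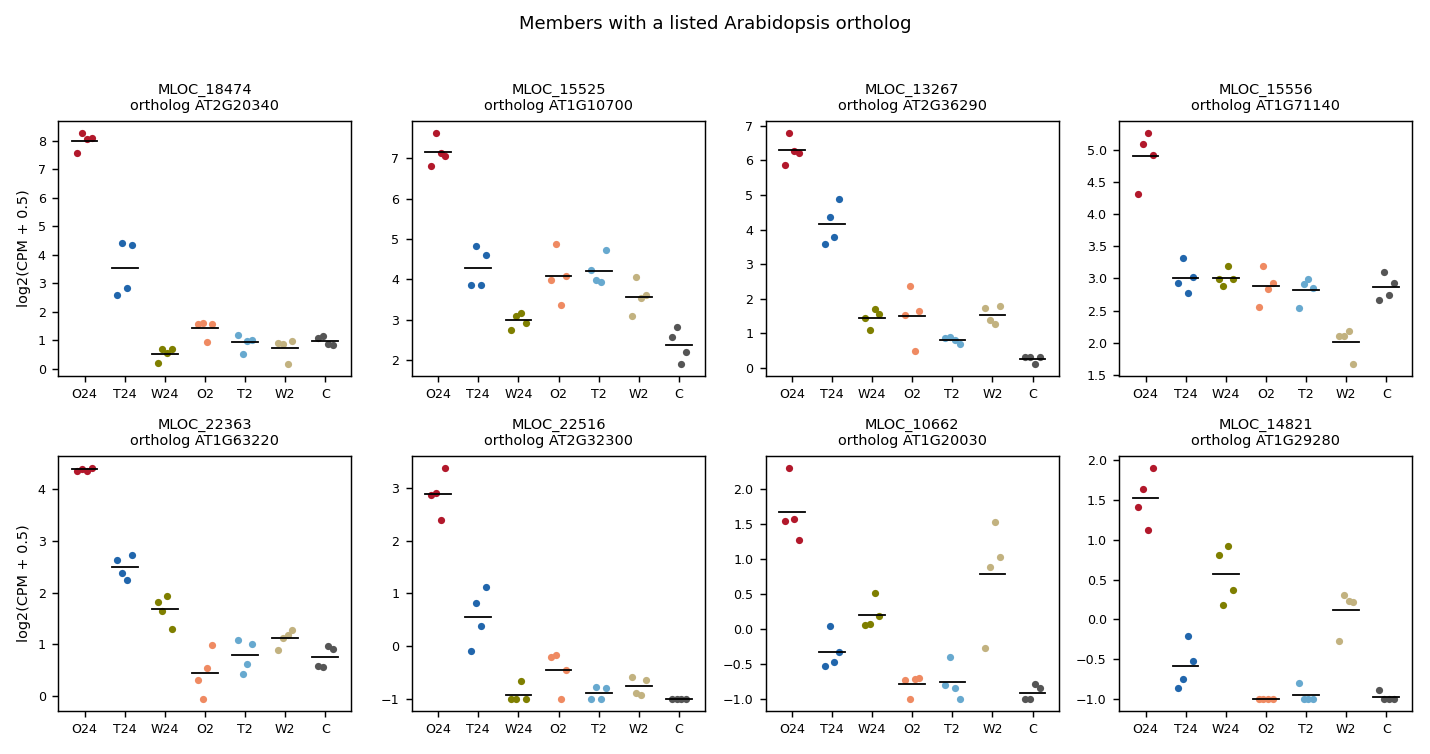
Level of the 8 members with a listed Arabidopsis ortholog, 1 panel each, as log2(CPM + 0.5) on the vertical axis, which differs between panels. Points are the 4 libraries of each group and bars their means. All panels have the highest mean in O24, and MLOC_10662 and MLOC_14821 have W24 above T24.

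The most abundant members in O24 were of 2 kinds, genes that were nearly silent in C and genes that were already well expressed there. MLOC_52081 was at 4932, 4400, 6311 and 7766 CPM in O24, against 720, 1097, 611 and 1461 CPM in T24 and 0.350, 3.90, 0.580 and 0.653 CPM in C. By mean CPM it was number 4 of all genes in O24, number 104 in T24 and number 13641 in C. It alone gave 0.585% of all counts in O24.

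MLOC_21664, number 16 in O24, was at 2583, 2630, 3503 and 4365 CPM there, against 148, 204, 85.7 and 241 CPM in T24 and 0.0438, 2.33, 0.0414 and 0.170 CPM in C. With both genes, C replicate 2 stood above the other controls. Without it their mean in C was 0.528 and 0.0852 CPM, against 1.37 and 0.647 CPM with it, and their L in O24 was 12.48 and 12.45, against 11.61 and 11.48. The C levels of both genes, and any fold against them, thus rest largely on that library. T24 replicate 4 was the highest T24 library for both. MLOC_14999 was at 1343, 1246, 1153 and 1202 CPM in O24, with little spread, against 84.9, 187, 153 and 285 CPM in T24 and 0, 1.29, 0.124 and 0.0852 CPM in C. It was the most abundant of the members called in W24, as described below with the wounding results.

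The other abundant pair had the highest control levels of all members. MLOC_61188 was at 1039, 1552, 1218 and 1260 CPM in O24, against 308, 426, 336 and 389 CPM in T24 and 100.3, 112, 88.1 and 89.6 CPM in C. MLOC_36605 was at 884, 1405, 1245 and 1240 CPM in O24, against 166, 292, 214 and 276 CPM in T24 and 42.5, 52.3, 41.6 and 37.5 CPM in C. For both genes the 3 groups were fully separate, and the O24 library that was lowest was replicate 1.

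**Figure D3:**
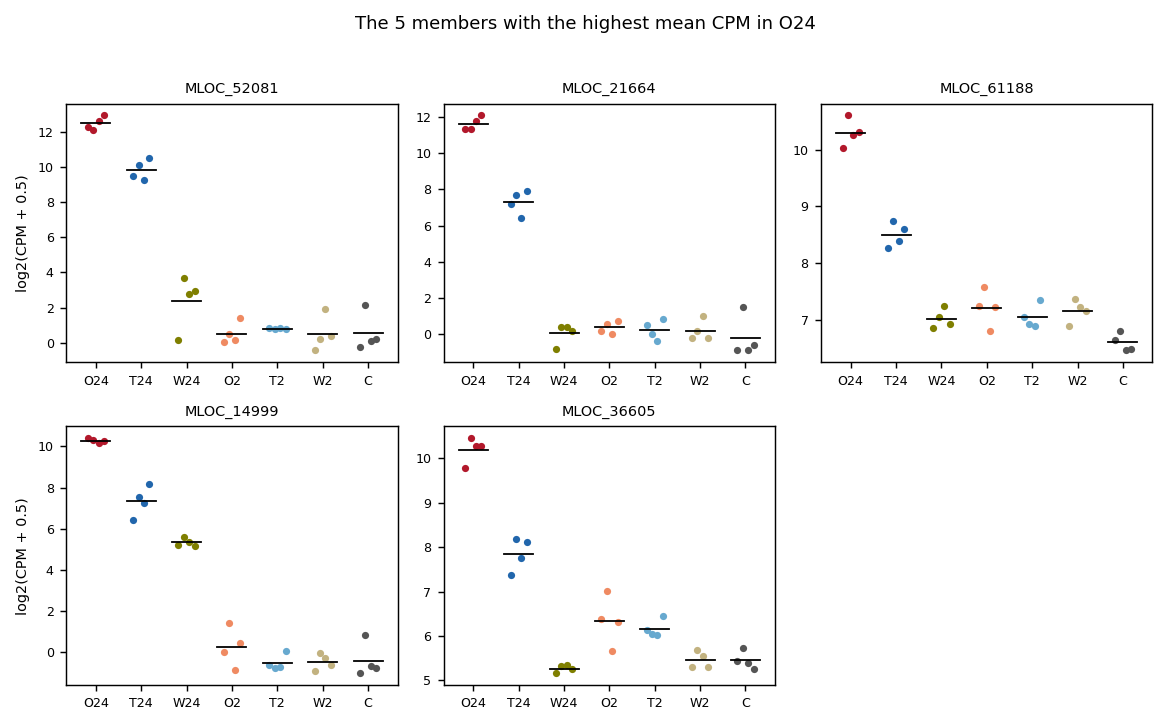
Level of the 5 members with the highest mean in O24, as log2(CPM + 0.5) on the vertical axis, which differs between panels. Points are the 4 libraries of each group and bars their means. MLOC_52081, MLOC_21664 and MLOC_14999 are near the floor in C, whereas MLOC_61188 and MLOC_36605 have a mean of 97.5 and 43.5 CPM in C.

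The distance between the mites was a matter of degree for most members. In O24 the median L of the members was 4.48, and in T24 it was 2.02. Of the 274, 229 had an L of at least 1 in T24 and 138 an L of at least 2, and in 258 all T24 libraries lay above all C libraries. The T24 and C libraries entered the rule and no share over all genes is at hand for the last count, so nothing is read from it. In all 274, every O24 library lay above every T24 library, a separation seen in 18.2% of all 16948 genes tested, from which nothing can be read because the rule used these libraries. The median member averaged 15.9% of its O24 level in T24, and the range was 2.32% to 29.4%.

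The widest gaps, among members with at least 5 CPM in O24, were those of MLOC_3110, MLOC_21664, MLOC_18474, MLOC_59156 and MLOC_10793, with differences in L of 4.41, 4.26, 4.25, 4.23 and 4.20. MLOC_3110 was at 18.4, 34.0, 82.8 and 39.3 CPM in O24, against 2.02, 2.18, 1.10 and 0.992 CPM in T24. It had no count in C, W2, W24 or T2 and 1 count in O2, so that it was seen almost only at 24 h with a mite. Against the level of 3 counts over the 4 control libraries it was at least 1613-fold higher in O24 and at least 58.1-fold higher in T24. MLOC_59156 was at 264, 197, 267 and 293 CPM in O24, against 8.82, 9.77, 9.66 and 24.3 CPM in T24. MLOC_10793 was at 74.2, 89.9, 89.4 and 69.4 CPM in O24, against 2.46, 4.69, 3.66 and 4.91 CPM in T24. Both had under 0.3 CPM in every library of O2 and C other than the O2 replicates 1 and 2 of MLOC_10793, at 0.370 and 0.461 CPM.

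At the other end, 45 members had an L under 1 in T24. Their median was 4.68 CPM in O24 and 0.406 CPM in T24, and 21 of them averaged at least 5 CPM in O24. Among those, MLOC_71857 had the lowest L in T24, at 0.02, followed by MLOC_15556. MLOC_71857 was at 6.19, 5.19, 9.58 and 12 CPM in O24, against 0.443, 0.339, 0.220 and 1.04 CPM in T24 and 0.307, 0.870, 0.373 and 0.426 CPM in C. T24 and C overlapped for this gene and O24 was apart from both.

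The rule cut through a continuous cloud of genes. A further 743 genes met the limits on O24 and W2 but had a smaller difference between the mites. The members' median L was 4.48 in O24 and 2.02 in T24, against 2.65 in O24 and 1.80 in T24 for these genes, so that the members stood apart from them more in O24 than in T24, as the rule required. Next to the limit on the difference, MLOC_57815 and MLOC_43485 were just inside, at 1.752 and 1.754, and MLOC_1260 and MLOC_75889 just outside, at 1.7498 and 1.746. Next to the limit on O24, MLOC_15556 and MLOC_63458 were inside with an L of 2.08 and 2.09, and MLOC_3996 and MLOC_23866 outside with 1.97 and 1.85. Next to the limits on W2, MLOC_72246 and MLOC_80436 were inside at -0.98 and -0.95, with MLOC_70200 and MLOC_14812 outside at -1.08 and -1.09. At the upper limit on W2, MLOC_18654 and MLOC_58742 were inside at 1.95 and 1.94, and MLOC_14356 and MLOC_72730 outside at 2.05 and 2.09.

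**Figure D4:**
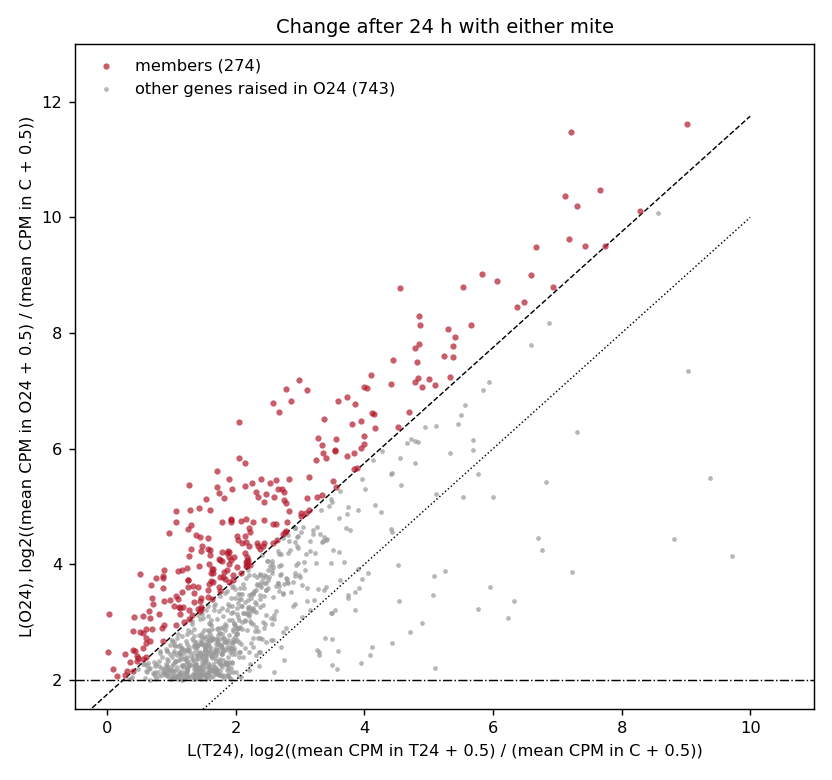
L in T24 (horizontal axis) and L in O24 (vertical axis) of the 274 members in red and of 743 other genes with an L of at least 2 in O24 and the same limits on W2 in grey. The dotted line marks equal L, the dashed line the limit on the difference and the dash-dotted line an L of 2 in O24, and the members continue the grey cloud without a gap.

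For the members, the replicates of T24 differed more, relative to their level, than those of O24. The median coefficient of variation over the 4 libraries was 18.7% for the members in O24 and 41.9% in T24. The median member was also lower in T24, at 3.39 CPM against 22.1 CPM in O24, and the part of counting noise was not tested. No such value over all genes is at hand, and the rule used these libraries. Replicate 1 was the lowest T24 library for 134 of the 274 members, and replicate 4 the highest for 209. T24 replicate 4 also had the lowest sum of leaf markers in T24, 5574 CPM, and its part in the members' levels was not tested. Without T24 replicate 4 the rule gave 324 members, of which 272 were among the 274.

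To describe the difference library by library, the members were chosen again with 1 replicate number left out of every group. L was then computed in the libraries left out. The rule gave 246, 269, 253 and 314 members without replicates 1, 2, 3 and 4. In the libraries left out, L was higher in O24 than in T24 for all of these genes in each of the 4 cases. The median difference there was 2.70, 2.39, 2.71 and 1.79, against 2.32, 2.36, 2.33 and 2.40 in the libraries used. The full limit on the difference was met by 220 of 246, 231 of 269, 242 of 253 and 164 of 314. The members' median L in O24 was 4.34 to 4.66 in the libraries left out. The gap between the mites was narrowest where T24 replicate 4 supplied the T24 value. The limits of the rule were set with earlier results of these data known, so the libraries left out were no independent test of the gap. No share over all genes is at hand to set beside these counts, so nothing about the members is read from them.

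At 2 h the mites could be compared in libraries that the rule did not use at all. Of the 274 members, 273 passed the filter on low counts and were tested, many of them through their O24 level. In O2, 26 members had no count and 57 at most 3, and in T2, 32 had none and 75 at most 3, so that many could not have been called. With edgeR's quasi-likelihood test, a call needed an adjusted p below 0.01 together with a log2 fold change beyond 1 in either direction. Between O2 and T2, 0 of 273 members were called, with 0% called among all 16948 genes. At an unadjusted p under 0.05, 19 members were higher and 4 lower in O2, and among all genes 281 were higher and 236 lower. DESeq2, an alternative count model, also called 0 members. A difference between the mites at 2 h was therefore not detectable for any single member at this depth, and the members' smallest adjusted p was 1.

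Against C, some members were called higher in the 2 h groups. The C libraries also entered the choice of the members, so that a gene low in these controls was more likely to be a member. Since 34 members had no count in C and 77 at most 3, many could not have been called lower, and members without counts at 2 h could not have been called higher. The shares of members called are therefore set in part by the choice, and nothing is read from their distance to all genes. In O2, 25 of 273 members (9.16%) were called higher, against 2.63% of all genes called higher and 88 of the 743 other raised genes (11.8%). In T2, 13 members (4.76%) were called higher, against 2.47% of all genes and 73 of the 743 (9.82%). The differences between these shares were not tested. The counts depended on the fit. DESeq2 called 50 members higher in O2 and 25 in T2, a model of O2 and C alone called 7 in O2, and T2 had 5 calls without T2 replicate 4 and 8 without C replicate 4. The called members were at a median of 1.36 CPM in O2 and 1.32 CPM in T2, or 2.88% and 2.65% of their O24 levels.

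MLOC_61585 was called in both. It was at 5.08, 4.87, 2.89 and 3.11 CPM in O2 and at 2.77, 4.61, 4.53 and 4.0 CPM in T2, against 0.876, 0.591, 0.83 and 0.568 CPM in C. The mite groups overlapped and both were apart from C, with log2 fold changes of 2.44 ± 0.34 in O2 and 2.47 ± 0.35 in T2 (SE, adjusted p = 1.8e-05 and 1.87e-05, edgeR). Between O2 and T2 the log2 fold change was -0.03 ± 0.30. At 24 h the gene was at 45.4 to 69.7 CPM in O24 and 10.3 to 17.2 CPM in T24, so the libraries of the mites were separate at 24 h and overlapped at 2 h.

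MLOC_36849 had the highest L of all members in O2, 4.02, and was one of the abundant members at 24 h, at 635 to 1319 CPM in O24 and 54.4 to 133 CPM in T24. In O2 it was at 14.6, 21, 2.55 and 6.45 CPM and in T2 at 2.54, 3.76, 3.27 and 13.1 CPM. In C it was at 0, 0.870, 0 and 0 CPM. It rose in O2 against C with a log2 fold change of 5.53 ± 0.83 (SE, adjusted p = 5.6e-05, edgeR). All 25 control counts came from C replicate 2, and without that library O2 was at least 305-fold higher than the level of 3 counts over the other 3 controls. In O2 the libraries spread over a wide range that took in most of T2, and the log2 fold change between them was 0.96 ± 0.57.

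MLOC_13320 was at 1.27, 2.24, 0.170 and 0.576 CPM in O2 and at 0.384, 0.171, 0.459 and 0.801 CPM in T2. C held 3 counts of it over the 4 libraries, and the ratio of O2 to C was 38 with an exact 95% counting interval of 12.5 to 189. Against C, its adjusted p was 2.03e-05 in O2, 0.00419 in T2 and 0.000467 in W24 (edgeR). After wounding it averaged 0.530 CPM in W2 and 0.523 CPM in W24. MLOC_70662 was at 1.27, 1.97, 0.567 and 0.634 CPM in O2 and at 0.615, 2.22, 2.01 and 2.56 CPM in T2, with no count in C. O2 was at least 41.1-fold and T2 at least 68.5-fold higher than the level of 3 counts over the controls, with adjusted p of 6.57e-05 in O2 and 6.77e-06 in T2 (edgeR). In T24 the same gene was at 0.985, 2.95, 1.02 and 1.14 CPM, a range that overlapped T2, whereas O24 was at 4.22 to 11.6 CPM.

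Against C, more members were called in leaves wounded 24 h before collection than in either mite group at 2 h, although the difference between these counts was not tested. The W24 libraries were also deeper, at 21594536 to 31354336 counts, against 15198755 to 18899809 in O2 and 11708010 to 17422941 in T2. Only 8 members had no count in W24, against 26 in O2 and 32 in T2. The part of depth in the numbers of calls was not tested. In W24, 82 of 273 members (30.0%) were called higher than in C, against 5.72% of all genes called higher and 162 of the 743 other raised genes (21.8%). DESeq2 called 96 members higher and 1 lower. The rule had set a limit on W2 and none on W24, but W24 was compared with the same C libraries that the rule used, so the share of members called is again set in part by the choice. The levels were low: the called members had a median of 1.71 CPM in W24, which was 4.96% of their O24 level.

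MLOC_14999 was the most abundant called member. It was at 36.9, 48.5, 40.1 and 35.8 CPM in W24, against the C values above, and rose by 6.58 ± 0.54 on the log2 scale (SE, adjusted p = 2.21e-09, edgeR). At 2 h after wounding it was at 0.0412 to 0.477 CPM. This was within the range of C only through C replicate 2, at 1.29 CPM, since the other C libraries reached at most 0.124 CPM. Of the called members, MLOC_5646 had the smallest p, at 10.8, 8.98, 12.5 and 11.6 CPM in W24, against 0.0438, 0.0348, 0.0414 and 0.0284 CPM in C (log2 fold change 7.92 ± 0.48 SE, adjusted p = 7.77e-12, edgeR). It was at 107 to 182 CPM in O24 and 14.1 to 37.8 CPM in T24, so the T24 range began just above the W24 range. MLOC_52537 was at 7.60, 7.28, 10.1 and 9.50 CPM in W24, against 1.01, 1.5, 1.57 and 1.28 CPM in C (log2 fold change 2.56 ± 0.22 SE, adjusted p = 1.48e-09, edgeR), and at 13.8 to 29.2 CPM in T24.

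MLOC_40523 was the 1 member whose mean was higher in W24 than in O24. It was at 11.5, 11.3, 13.3 and 11.1 CPM in W24, against 0, 0.0348, 0.0829 and 0.0568 CPM in C (log2 fold change 7.75 ± 0.50 SE, adjusted p = 1.75e-11, edgeR). In O24 it was at 4.68, 6.78, 5.05 and 7.05 CPM, in T24 at 0.394, 1.79, 1.02 and 1.24 CPM and in W2 at 0.660, 2.21, 1.12 and 1.61 CPM. W24 was apart from every other group, and W2 overlapped T24. In 17 members the W24 mean was above the T24 mean, among them MLOC_10662, MLOC_14821 and MLOC_71857.

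**Figure D5:**
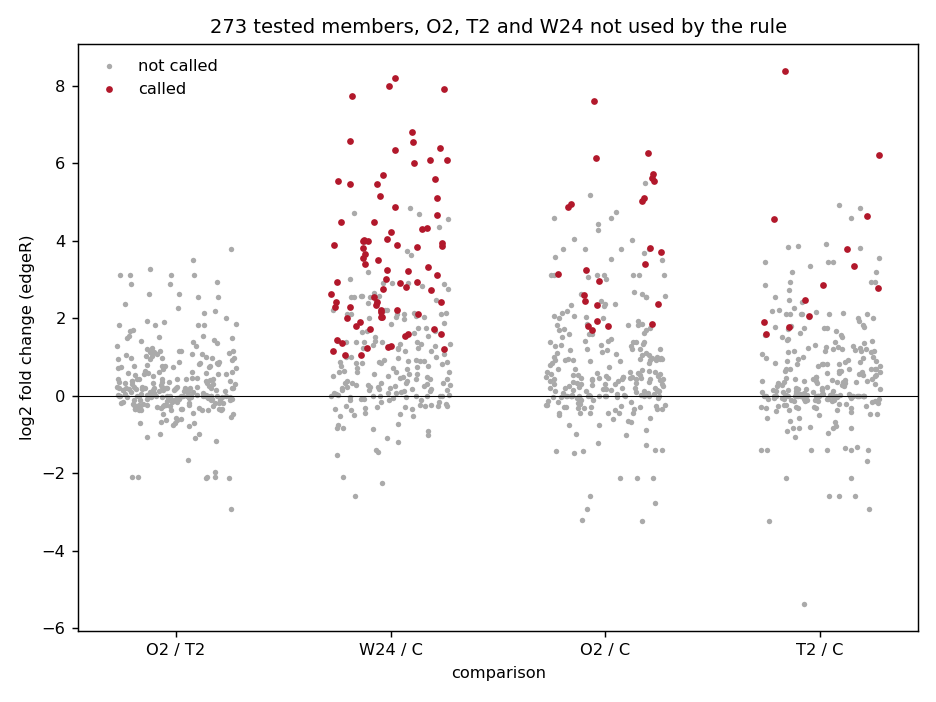
Log2 fold change (vertical axis, edgeR) of the 273 tested members in O2 against T2, W24 against C, O2 against C and T2 against C. Red points are called members, and grey points are not called, with 0, 82, 25 and 13 called. The C libraries entered the choice of the members.

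A short list of 12 annotated barley genes, none of them members, was followed in the same libraries. Besides genes of general shikimate, phenylpropanoid and isoprenoid enzymes, which are not particular to defence, the list held terpene synthase, jasmonate and salicylate genes. Its terpene synthase genes MLOC_56812, MLOC_76989 and MLOC_13618 were taken from the study, which names them as induced by the mites in these data. Their higher calls against C in O24 and T24 were thus set by the choice. The same holds for MLOC_56812 and MLOC_76989 in O2 and T2. Of the list's 12 genes, 7 were called higher and 2 lower in O24 against C, where 20.0% of all genes were called higher and 15.6% lower. The 2 called lower were MLOC_21379 and MLOC_10729, genes of isoprenoid enzymes, with log2 fold changes of -1.07 and -1.56. MLOC_14437, MLOC_16097 and MLOC_13895 were not called, at 0.16, -0.20 and -0.97. In T24 against C, 7 were called higher and 1 lower, with 14.1% and 5.79% of all genes. In O24 against T24, 1 was called higher, with 6.25% of all genes. It was MLOC_13618, which met the limits of the rule and was left out by name, so the list's lack of members was set in part by that choice. Between O24 and T24, MLOC_17364 and MLOC_1340 also differed, with log2 fold changes of 0.91 and 0.55 (adjusted p = 6.87e-05 and 0.000701, edgeR). Both were short of the fold limit of a call. The list's median log2 fold change was 1.84 in O24 and 1.11 in T24 against C. Against C, 4 of the 12 were called higher in O2, 4 in T2 and 2 in W24, where 2.63%, 2.47% and 5.72% of all genes were, and 0 were called in O2 against T2. The 4 in O2 and in T2 were MLOC_56812, MLOC_76989, MLOC_21933 and MLOC_12120, and those in W24 were MLOC_21933 and MLOC_12120. The study also reports that jasmonate genes of barley responded in these data. The list's counts, those at 24 h included, were thus set in part by the choice, and nothing is read from their distance to all genes. MLOC_21933, the gene for allene oxide synthase, an early step of jasmonate synthesis, averaged 195 CPM in O24 and 351 CPM in T24, against 1.55 CPM in C. MLOC_12120, listed as a JAZ repressor of jasmonate signalling, averaged 392 CPM in O24 and 279 CPM in T24, against 20.9 CPM in C. Neither was called between O24 and T24 (log2 fold changes -0.84 ± 0.44 and 0.50 ± 0.22, adjusted p = 0.146 and 0.0796, edgeR). At 2 h both were high already, with 151 and 159 CPM in O2 and 126 and 194 CPM in T2, a time when the median member was at 0.409 CPM in O2 and 0.275 CPM in T2. Of the 7 leaf markers, 6 were called lower in O24 and 5 in T24 against C, where 15.6% and 5.79% of all genes were, and 0 in O2, T2 or W24. In W2 against C, 4 were called lower, with a median log2 fold change of -1.10 over the markers, and no share over all genes is at hand.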

How the data were processed

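The deposited table held raw counts per gene, which the authors made by aligning paired reads of stranded poly(A) libraries to the barley assembly ASM3268v1 with STAR (version 2.5.1b in the submitters' processing notes) and counting uniquely aligned reads on the reverse strand over transcript features with HTSeq 0.6.0. Reads shared by near-identical genes were therefore not counted, and members with close copies may be understated. Reads were aligned to barley alone, so mite RNA was not followed. The 28 columns were matched to samples by their labels, and 0 columns were left over. No 2 replicates were repeats of 1 library (chi-square per gene from 8.59 to 96.6 over genes with at least 20 counts, where 1 is sampling noise).

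Members were chosen on CPM from library totals, with a pseudocount of 0.5 and a limit of 1.75 on the difference in L between the mites. The members and the gene lists were chosen with earlier results of these data known. Tests used edgeR 4.0.16 in R 4.3.3 (glmQLFit and glmQLFTest, robust, TMM factors, filterByExpr with a minimum count of 10) on all 28 samples with 1 mean per group and no covariates. P-values were adjusted by Benjamini and Hochberg over 16948 genes in each contrast. The replicates were separate leaf enclosures. Where C had no count, folds were taken against 3 counts over the group. Reads are not independent molecules, and intervals and floors therefore reflect counting error alone. The scripts were tested on simulated data.

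Genes named were the 5 most abundant members in O24, the 5 with the widest gap between mites and the 2 with the lowest L in T24 (at least 5 CPM in O24), the 3 called with the smallest p in O2 against T2 and in O2, T2 and W24 against C, those with a listed ortholog, the 2 highest in C and those next to each limit. Any others were chosen after their values were seen. Alternatives were DESeq2 1.42.0, other scalings, filters, thresholds and pseudocounts, the replicate number as a block, and each replicate left out in turn.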

Additional observations from a re-analysis of the deposited data

Results flagged for a closer look

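Among the genes named for their level, gap, test or ortholog, 108 groups of 4 libraries with a mean of at least 1 CPM were screened for a library far from the others by Dixon's ratio, the members' sums included. The screen picked out 11 of them (10.2%), where chance gives about 1 in 20. T24 replicate 4 stood above the rest of T24 for MLOC_59156, at 24.3 CPM against 8.82 to 9.77 CPM, and for MLOC_52537, at 29.2 CPM against 13.8 to 15 CPM. T24 replicate 2 did so for MLOC_70662, at 2.95 CPM against 0.985 to 1.14 CPM. In O24, MLOC_61585 was at 69.7 CPM in replicate 2 against 45.4 to 48.2 CPM in the others, and MLOC_5646 was at 182 CPM in replicate 4 against 107 to 116 CPM.

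At 2 h, MLOC_36849 was at 13.1 CPM in T2 replicate 4 against 2.54 to 3.76 CPM in the other T2 libraries. MLOC_18474 was low in replicate 3 of O2, at 1.42 CPM against 2.48 to 2.57 CPM, and in replicate 3 of W2, at 0.626 CPM against 1.34 to 1.47 CPM. After wounding, MLOC_40523 was at 13.3 CPM in W24 replicate 3 against 11.1 to 11.5 CPM, and the members' sum was 738 CPM in W2 replicate 2 against 597 to 618 CPM. In C, MLOC_52081 was at 3.90 CPM in replicate 2 against 0.350 to 0.653 CPM.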

How the results depend on the processing

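The rule gave 267 members with TMM scaling, 305 with a pseudocount of 0.25 and 235 with a pseudocount of 1, of which 266, 250 and 226 were among the 274. Leaving out 1 library of C, O24, T24 or W2 gave 247 to 324 members. Calls in O2 against C numbered 50 with DESeq2, 50 at an adjusted p under 0.05 and 7 with only these 2 groups in the fit, where MLOC_36849, MLOC_15525 and MLOC_13267 missed the threshold (adjusted p = 0.0214, 0.012 and 0.0362, edgeR). They numbered 17 to 37 with 1 library left out, 17 without O2 replicate 2 and 37 without O2 replicate 3. Calls in T2 against C numbered 25 with DESeq2, 22 at an adjusted p under 0.05 and 5 to 15 with 1 library left out. Calls in W24 against C numbered 65 to 109 over all settings and 74 to 84 with 1 library left out. Calls in O2 against T2 stayed at 0 in each setting. Without the 5 most abundant members, the mean summed CPM was 21947 in O24, 3956 in T24 and 281 in C, with 594 in W24 and 452 in W2, and 440 in O2 and 395 in T2. The alternatives were run for 21 called fold changes of 14 named members in O2, T2 or W24 against C, which kept their direction in 329 of 329 cases and missed the threshold in 23. They were not run for the list of annotated genes and the leaf markers. The difference of MLOC_61585 between O2 and T2, which was not called, was -0.195 to 0.0848 with 1 library left out and changed sign without O2 replicate 3 or 4 or T2 replicate 2 or 3. The cause of these shifts was not tested.

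Replicate numbers were shared between groups, but same-numbered libraries had correlations of -0.06 to 0.28 in their deviations from the group means, over 0.1 in 5 of 16 cases, so the numbers were not taken as pairs. With the replicate block, 27 members were called in O2 against C, 15 in T2 against C, 88 in W24 against C and 0 in O2 against T2, and 5 of 16 libraries correlated best with their own number. Few control reads limit the precision for many members, since 77 had at most 3 counts over the 4 C libraries.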

Other observations

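In C replicate 2, 4 of the named genes were over 5 times the highest of the other C libraries, and they were all among the members most abundant in O24. MLOC_52081, MLOC_21664, MLOC_14999 and MLOC_36849 were there at 0.0666%, 0.0713%, 0.104% and 0.0913% of their mean CPM in O24. In the other C libraries they reached at most 0.0112%, 0.00521%, 0.0101% and 0% of it. Without this library the mean in C was 0.528, 0.0852, 0.0698 and 0 CPM, against 1.37, 0.647, 0.374 and 0.217 CPM with it, so that the C levels of these 4 genes and the folds against them depend on it. What set this library apart was not tested.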
